A study of Mus musculus with 12 samples.

Results

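The dual-specificity MAP kinase phosphatases Dusp1, Dusp4, Dusp5, Dusp6, Dusp7, Dusp8, Dusp10, Dusp14 and Dusp16 were followed as 9 of the 48709 genes counted by RNA sequencing of mouse embryonic fibroblasts. They were taken by gene name from the deposited count matrix, and each had 1 row there. The wild-type C57BL/6 fibroblasts came from embryos of E12.5–13.5. They received an siRNA against IMP2 or a control siRNA for 24 hours and then interleukin-17 (IL-17) at 200 ng/mL, or no stimulus, for 8 hours. IMP2 is the product of Igf2bp2 and binds mRNA that carries N6-methyladenosine, and IL-17 is a cytokine that raises chemokine and acute-phase genes in stromal cells.
The 4 groups were siIMP2 (the IMP2 siRNA without a stimulus), siControl (the control siRNA without a stimulus), siIMP2_IL17 and siControl_IL17 (either siRNA followed by IL-17), with 3 libraries each. All 12 libraries came from transfected wild-type cells, and the labels name no untransfected cells, no rescue and no count of embryos or cultures.

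MAP kinases (ERK, JNK and p38) are switched on when an upstream kinase phosphorylates a threonine and a tyrosine in their activation loop. The phosphatases described here remove both phosphates. Many are themselves made in response to MAP kinase signalling, so the family acts as negative feedback, and in stromal and immune cells Dusp1 is known for limiting p38 and JNK activity after inflammatory stimuli. Dusp1, Dusp4 and Dusp5 act in the nucleus, Dusp6 and Dusp7 act on ERK in the cytoplasm, and Dusp8, Dusp10 and Dusp16 prefer JNK and p38. Dusp14 is a small atypical member without the amino-terminal kinase-binding region of the others.

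The members with the largest siRNA effects were Dusp8, Dusp1 and Dusp5, and their promoters are shown because they hold letters that few promoters hold. RefSeq promoter windows of the build GRCm38.p6 were found for 8 of the 9 members, all but Dusp4. Each window has 250 bases before and 50 bases after the RefSeq start site and is written 5′ to 3′ on the strand of the gene. Capitals mark the cyclic AMP response element (CRE, TGACGTCA), to which the CREB and ATF factors bind, and, in Dusp1, also the CRE core (TGACG). In Dusp5 they mark the CArG box, the site of serum response factor. The Dusp8 window lies at chr7:142095235-142095534 on the minus strand, the Dusp1 window at chr17:26508423-26508722 on the minus strand and the Dusp5 window at chr19:53528895-53529194 on the plus strand.
Dusp8: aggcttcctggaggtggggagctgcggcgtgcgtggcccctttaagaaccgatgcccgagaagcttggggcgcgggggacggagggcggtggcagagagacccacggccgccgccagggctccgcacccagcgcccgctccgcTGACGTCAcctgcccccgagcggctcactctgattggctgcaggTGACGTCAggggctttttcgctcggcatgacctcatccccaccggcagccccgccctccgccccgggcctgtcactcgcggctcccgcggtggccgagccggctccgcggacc
Dusp1: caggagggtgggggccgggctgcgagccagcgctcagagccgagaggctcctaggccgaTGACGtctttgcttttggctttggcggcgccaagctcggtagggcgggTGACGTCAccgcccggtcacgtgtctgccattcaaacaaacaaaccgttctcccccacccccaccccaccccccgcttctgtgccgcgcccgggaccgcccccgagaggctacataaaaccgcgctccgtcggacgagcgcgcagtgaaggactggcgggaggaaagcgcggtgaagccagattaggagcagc
Dusp5: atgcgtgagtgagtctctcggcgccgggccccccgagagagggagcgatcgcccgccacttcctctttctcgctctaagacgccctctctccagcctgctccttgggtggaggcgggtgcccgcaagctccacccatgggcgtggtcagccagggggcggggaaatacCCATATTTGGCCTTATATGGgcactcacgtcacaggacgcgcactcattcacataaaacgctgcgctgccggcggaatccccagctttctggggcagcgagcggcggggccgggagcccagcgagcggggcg
The start sites lie 559, 47 and 36 bases inside the Dusp8, Dusp1 and Dusp5 intervals of the deposited files, which carry mm10 coordinates. Dusp8 held 2 full CREs, which begin at positions -107 and -63 from the start site, and Dusp1 held 1, at position -143. A full CRE stood in 1.79% of 32851 RefSeq promoter windows, and 2 or more in 0.0396%. Dusp5 held 2 CArG boxes side by side, at positions -82 and -72, where 1.63% of windows held at least 1 and 0.0183% at least 2. The windows of Dusp6, Dusp7, Dusp10, Dusp14 and Dusp16 held neither a full CRE nor a CArG box. The CRE core, searched on both strands and contained in the full one, was also found once in Dusp16 and once in Dusp5, and stood in 20.8% of windows. The AP-1 letters TGANTCA (7.81% of windows), the C/EBP letters TTGCNNAA (10.8%) and the NF-kB motif (4.51%) were in none of the 8 member windows. A match describes the letters and not a bound factor, and a missing match says only that the letters are not in that window.

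Libraries held 33841054 to 44433699 counts in exons. The library titles form 2 sets: titles that begin with RB160 (replicate 3 of every group, 4 libraries) and titles that begin with NA (replicates 1 and 2 of every group, 8 libraries). These sets stand apart, with 69.5% of 13702 tested genes called between them by edgeR's quasi-likelihood test (a call is a Benjamini-Hochberg adjusted p below 0.05). The labels do not say what the sets are, so the set was a term in each fit. Effects within RB160 and within NA are given beside the pooled ones for some of the genes. Igf2bp2 had 18.4 to 28.2 CPM (exon counts per 1000000 counts of the library, TMM-scaled) in the 6 siIMP2 and siIMP2_IL17 libraries and 133.7 to 167.5 CPM in the 6 siControl and siControl_IL17 libraries, and its fitted level with the IMP2 siRNA was 0.15 times that with the control siRNA. Of 14 fibroblast markers all were tested, with summed levels of 27930 to 38460 CPM. Of 8 macrophage genes, 2 (Adgre1 and Tyrobp) were at 0 in every library and 2 passed the filter, and the list summed to 3.81 to 6.21 CPM. Of 7 skeletal muscle genes, 2 (Myod1 and Myf5) were at 0 in every library and 1 passed, and the list summed to 0.707 to 2.37 CPM. Separate cultures are stated in no label, and p-values therefore measure how these libraries spread, which may be a technical spread. In bulk RNA, fewer cells of a type and less RNA per cell cannot be told apart.

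All 9 members passed the filter on low counts. To compare genes, levels were divided by exon length and given as CPM per kilobase. In siControl libraries Dusp1 was the most abundant at 37.2 ± 7.61 CPM per kilobase (SD, n = 3, as for the other members), followed by Dusp6 at 27.0 ± 8.89, Dusp5 at 22.9 ± 5.57, Dusp14 at 19.9 ± 4.03 and Dusp7 at 18.6 ± 5.05. Dusp10 at 9.84 ± 0.356, Dusp4 at 5.41 ± 3.05, Dusp16 at 2.96 ± 0.249 and Dusp8 at 1.81 ± 0.233 CPM per kilobase were lower. Dusp1 was above Dusp6 in 12 of 12 libraries, and Dusp7 was above Dusp10 in 12 of 12. Among neighbours in this order, Dusp6 and Dusp5 (Dusp6 higher in 10 of 12 libraries), Dusp14 and Dusp7 (5 of 12), Dusp4 and Dusp16 (8 of 12) and Dusp16 and Dusp8 (8 of 12) did not keep their order in all libraries. The summed level of the members was 133.8 CPM per kilobase in the RB160 library and 204.5 and 208.5 in the NA libraries of siIMP2, against 105.9 in the RB160 library and 168.0 and 162.9 in the NA libraries of siControl. With IL-17 it was 140.9, 189.1 and 203.2 CPM per kilobase in siIMP2_IL17, against 104.3, 166.7 and 157.0 in siControl_IL17, in the same order of libraries. Within each set the sum was thus higher with the IMP2 siRNA, and within each siRNA the RB160 library was the lowest. The sum follows the abundant members. From siControl to siIMP2 the group mean went from 37.2 to 60.5 CPM per kilobase for Dusp1 and from 22.9 to 31.4 for Dusp5. Dusp14 (19.9 to 18.5), Dusp4 (5.41 to 4.99) and Dusp16 (2.96 to 2.94) were lower, so the sum does not describe every member.

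**Figure D1:**
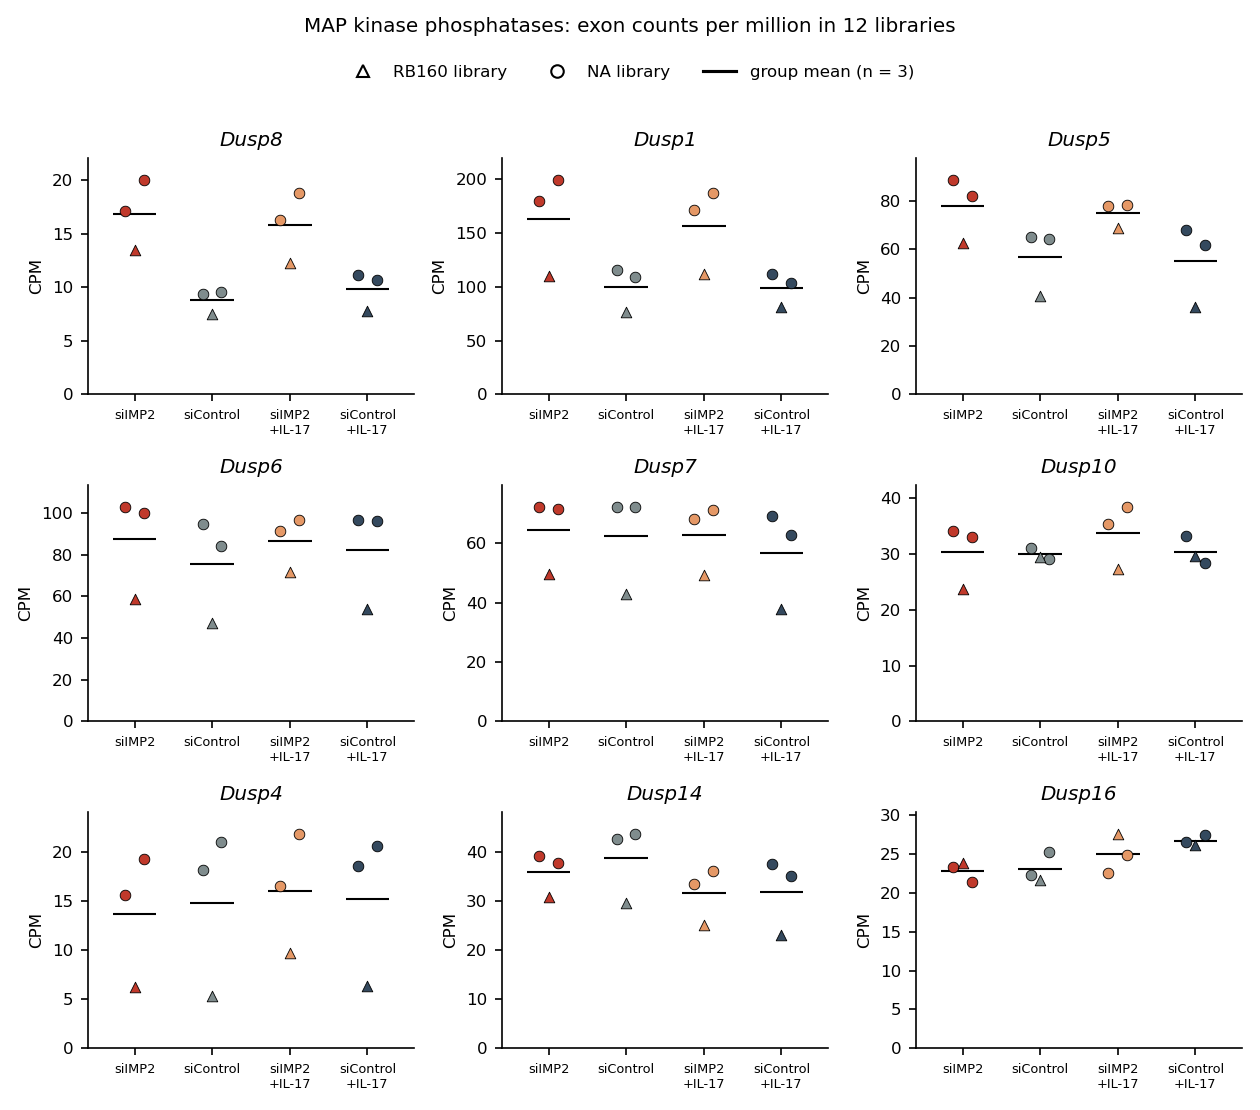
Exon counts as CPM (linear axis from 0) of the 9 members in each of the 12 libraries, by group, with triangles for RB160 and circles for NA libraries and a line at the mean of the 3 libraries. Dusp8, Dusp1 and Dusp5 lie higher with the IMP2 siRNA within either set, and Dusp4 lies lowest in the 4 RB160 libraries.

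The first comparison asks what the IMP2 siRNA did to the phosphatases without a stimulus. Dusp8, Dusp1 and Dusp5 were higher in siIMP2 than in siControl cells, by 1.91-fold, 1.61-fold and 1.38-fold, and no member was called lower. The 3 called members of 9 are a share near that of all genes (32.9% of 13702 genes called, 16.1% called higher), so the count is no result about the family. The median log2 fold change was 0.07 over the members and -0.00036 over all tested genes.

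Among the nuclear phosphatases, Dusp1 is an immediate early gene whose product acts on p38, JNK and ERK. It is on chromosome 17 from 26505590 to 26508519 (minus strand, mm10). Dusp1 had 110.3 CPM in the RB160 library and 179.8 and 199.5 CPM in the NA libraries of siIMP2, against 76.8 CPM in the RB160 library and 115.2 and 108.7 CPM in the NA libraries of siControl. All siIMP2 libraries were above the siControl libraries of their own set, while the pooled groups overlapped through the siIMP2 RB160 library. The log2 fold change was 0.68 ± 0.08 (SE, n = 3 each), with an edgeR adjusted p of 3.4e-05, and it was 0.52 within RB160 and 0.75 within NA. Dusp5, a nuclear phosphatase specific for ERK (chromosome 19, 53529109 to 53542431, plus strand), had 62.5 CPM in the RB160 library and 88.7 and 81.9 CPM in the NA libraries of siIMP2. In siControl it had 40.8 CPM in the RB160 library and 65.1 and 64.2 CPM in the NA libraries. Again each siIMP2 library was above those of its own set in siControl, and 1 siIMP2 value, the RB160 one, lay within the siControl range. Its log2 fold change was 0.47 ± 0.11, with an edgeR adjusted p of 0.0045, at 0.61 within RB160 and 0.39 within NA. Dusp4, which acts on ERK, JNK and p38 in the nucleus (chromosome 8, 34807297 to 34819894, plus strand), had 6.19 CPM in the RB160 library and 15.6 and 19.2 CPM in the NA libraries of siIMP2, against 5.30 CPM and 18.2 and 21.0 CPM in siControl. The groups overlapped, and the log2 difference of -0.07 ± 0.16 did not pass the test (edgeR adjusted p = 0.797).

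The cytoplasmic ERK phosphatases differed less. Dusp6, whose transcript is a widely used readout of ERK activity (chromosome 10, 99263231 to 99267488, plus strand), had 58.8 CPM in the RB160 library and 103.1 and 100.1 CPM in the NA libraries of siIMP2, against 47.4 CPM and 94.6 and 84.4 CPM in siControl. Its siIMP2 values were above those of siControl within each set, but the log2 difference of 0.22 ± 0.09 did not pass the test (edgeR adjusted p = 0.0804). Dusp7, a close relative (chromosome 9, 106368632 to 106375724, plus strand), had 49.7 CPM in the RB160 library and 72.2 and 71.7 CPM in the NA libraries of siIMP2, against 42.9 CPM and 72.3 and 72.1 CPM in siControl. The NA values of both groups lay within 1 CPM of each other, and the log2 difference was 0.07 ± 0.07 (edgeR adjusted p = 0.501).

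Of the phosphatases that prefer JNK and p38, Dusp8 alone was called. Dusp8 (chromosome 7, 142079490 to 142095843, minus strand), the least abundant member per kilobase in siControl but not in siIMP2 (3.46 CPM per kilobase, beside 2.94 for Dusp16), had 13.5 CPM in the RB160 library and 17.1 and 20.0 CPM in the NA libraries of siIMP2. In siControl it had 7.49 CPM in the RB160 library and 9.34 and 9.56 CPM in the NA libraries. The groups did not overlap, and these levels rest on 569 to 687 counts per siIMP2 library and 315 to 342 per siControl library. The log2 fold change was 0.93 ± 0.09, with an edgeR adjusted p of 8.2e-06, at 0.84 within RB160 and 0.97 within NA. Dusp10, which restrains JNK and p38 in immune cells (chromosome 1, 184013302 to 184075636, plus strand), had 23.8 CPM in the RB160 library and 34.1 and 33.1 CPM in the NA libraries of siIMP2, against 29.4 CPM and 31.2 and 29.1 CPM in siControl. It was lower in siIMP2 in RB160 and higher in siIMP2 in NA, and the pooled log2 difference was 0.00085 ± 0.10 (edgeR adjusted p = 0.996). Dusp16, which shuttles between nucleus and cytoplasm (chromosome 6, 134715468 to 134792625, minus strand), ranged from 21.5 to 23.9 CPM in siIMP2 and from 21.7 to 25.3 CPM in siControl. Dusp14, the atypical member (chromosome 11, 84048041 to 84069261, minus strand), ranged from 30.9 to 39.3 CPM in siIMP2 and from 29.7 to 43.8 CPM in siControl. Neither passed the test, with log2 differences of -0.01 ± 0.08 for Dusp16 (edgeR adjusted p = 0.926) and -0.09 ± 0.07 for Dusp14 (edgeR adjusted p = 0.35).

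**Figure D2:**
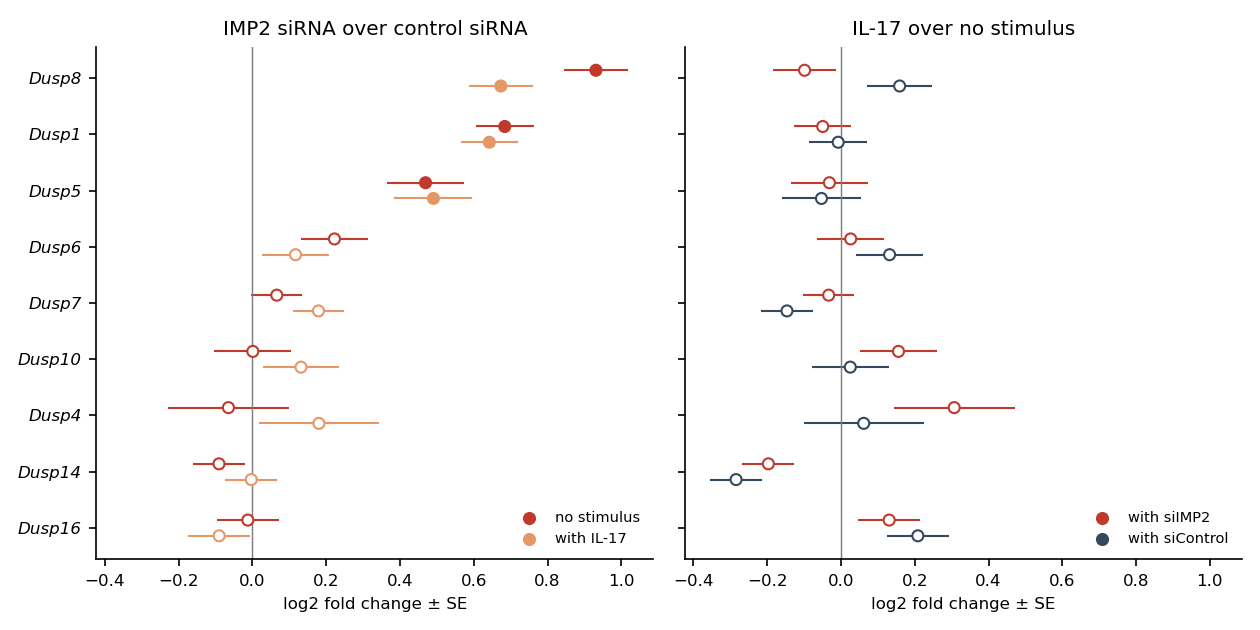
Log2 fold changes with standard errors from the edgeR fit, for the IMP2 siRNA over the control siRNA (left, without a stimulus and with IL-17) and for IL-17 over no stimulus (right, with either siRNA), filled where the adjusted p is below 0.05. Dusp8, Dusp1 and Dusp5 are called for the siRNA in both conditions, and no member is called for IL-17 with either siRNA alone.

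The same siRNA comparison was made in cells that had received IL-17, from 6 other libraries. Again 3 of 9 members were called, all higher with the IMP2 siRNA, beside 33.4% of all genes called and 16.7% called higher. Dusp1 had 111.8 CPM in the RB160 library and 171.3 and 187.4 CPM in the NA libraries of siIMP2_IL17, against 81.2 CPM and 111.5 and 103.8 CPM in siControl_IL17. Dusp8 had 12.3 CPM in the RB160 library and 16.3 and 18.8 CPM in the NA libraries of siIMP2_IL17, against 7.82 CPM and 11.2 and 10.7 CPM in siControl_IL17. Dusp5 had 68.6 CPM in the RB160 library and 77.7 and 78.4 CPM in the NA libraries of siIMP2_IL17, against 36.0 CPM and 67.8 and 61.7 CPM in siControl_IL17. For these 3 genes the 3 siIMP2_IL17 libraries all lay above the 3 siControl_IL17 libraries, and the share of all genes without overlap is not given here. The log2 fold changes were 0.64 ± 0.08 for Dusp1, 0.67 ± 0.09 for Dusp8 and 0.49 ± 0.11 for Dusp5, with edgeR adjusted p-values of 5.6e-05, 8.5e-05 and 0.0033. Within RB160 they were 0.46, 0.64 and 0.93, and within NA 0.73, 0.68 and 0.26, so the pooled Dusp5 value was over 1.5 times that of NA. Among the other 6 members the log2 differences ran from -0.09 (Dusp16) to 0.18 (Dusp4), with adjusted p-values of 0.0643 to 0.976. In the NA libraries alone Dusp10 was also called, at 0.25 (edgeR adjusted p = 0.0462).

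Averaging both conditions sets 6 libraries against 6 and gives the smallest errors. Dusp8 was 1.74-fold, Dusp1 1.58-fold and Dusp5 1.39-fold higher with the IMP2 siRNA, with log2 fold changes of 0.80 ± 0.06, 0.66 ± 0.06 and 0.48 ± 0.07 and edgeR adjusted p-values of 4.2e-07, 8.4e-07 and 0.00017. Each stayed called when any single library was left out, and the Dusp8, Dusp1 and Dusp5 changes were also called by DESeq2 and limma-voom. Dusp6 was the fourth called member, at 1.12-fold (log2 0.17 ± 0.06, adjusted p = 0.0447). The Dusp6 call was lost in the NA libraries alone (0.07, adjusted p = 0.283) and, at log2 differences of 0.09 to 0.18 and adjusted p-values of 0.0513 to 0.121, without siIMP2 replicate 1 or 2, siControl replicate 2 or 3, siIMP2_IL17 replicate 3, or siControl_IL17 replicate 1, 2 or 3. In all, 4 of 9 members were called beside 49.5% of all genes, again a share near the background, with 24.1% of all genes called higher. The members' median log2 fold change was 0.12, beside -0.0022 over all genes. Other members passed in some alternatives: Dusp7, at 0.12 to 0.16, under both other filters, the robust fit, unique reads and without siControl, siIMP2_IL17 or siControl_IL17 replicate 1, and Dusp10 in NA alone (0.20, edgeR adjusted p = 0.0196). With each library left out in turn, 3 to 5 members were called, beside 6116 to 6584 genes. Without the set term Dusp8 and Dusp1 remained called, and Dusp5 was not, at 0.45 ± 0.17 on the log2 scale (edgeR adjusted p = 0.129), close to the 0.48 with the term and with a larger error.

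Markers of the fibroblasts themselves moved in the same comparison. Of 14 fibroblast markers 3 were called higher and 7 lower, with a median log2 fold change of -0.33. Dcn averaged 3.31 CPM with the IMP2 siRNA and 20.3 CPM with the control siRNA, and Col3a1 463.4 and 803.8 CPM, while Col1a1 and Fn1 were higher, at 0.32 ± 0.05 and 0.31 ± 0.04. The summed level of the list was 36340 to 38460 CPM in siIMP2, against 32720 to 34100 CPM in siControl. The epithelial list, nearly silent here, summed to 1.58 to 3.36 CPM in siIMP2, against 1.11 to 2.43 CPM in siControl, and 2 of its 3 tested genes were called higher and 1 lower. The part of these lists in the member changes was not tested.

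The effect of the siRNA was then compared between the title sets in a fit with a term for that difference. Dusp5 rose more in RB160, at 0.77 within RB160 and 0.33 within NA, a difference of 0.44 ± 0.10 (edgeR adjusted p = 0.0229). For Dusp10 the difference was -0.42 ± 0.10 (edgeR adjusted p = 0.0288), with -0.21 within RB160 and 0.20 within NA. These were 2 of 9 members called, beside 6.58% of all genes. Both calls depended on single libraries: without siIMP2_IL17 replicate 3 or siControl_IL17 replicate 3 the Dusp5 difference was 0.218 or 0.215 (adjusted p = 0.54 and 0.544), and it also missed the threshold without siIMP2 replicate 2 and siIMP2_IL17 replicates 1 or 2 (0.42, 0.41 and 0.41). The Dusp10 call was lost without replicate 2 or 3 of siIMP2, replicate 3 of siControl, replicate 2 or 3 of siIMP2_IL17 and replicate 3 of siControl_IL17, at -0.46 to -0.38. For Dusp8 and Dusp1 the differences of -0.08 ± 0.13 and -0.26 ± 0.09 did not pass the test, at adjusted p-values of 0.758 and 0.0941.

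**Figure D3:**
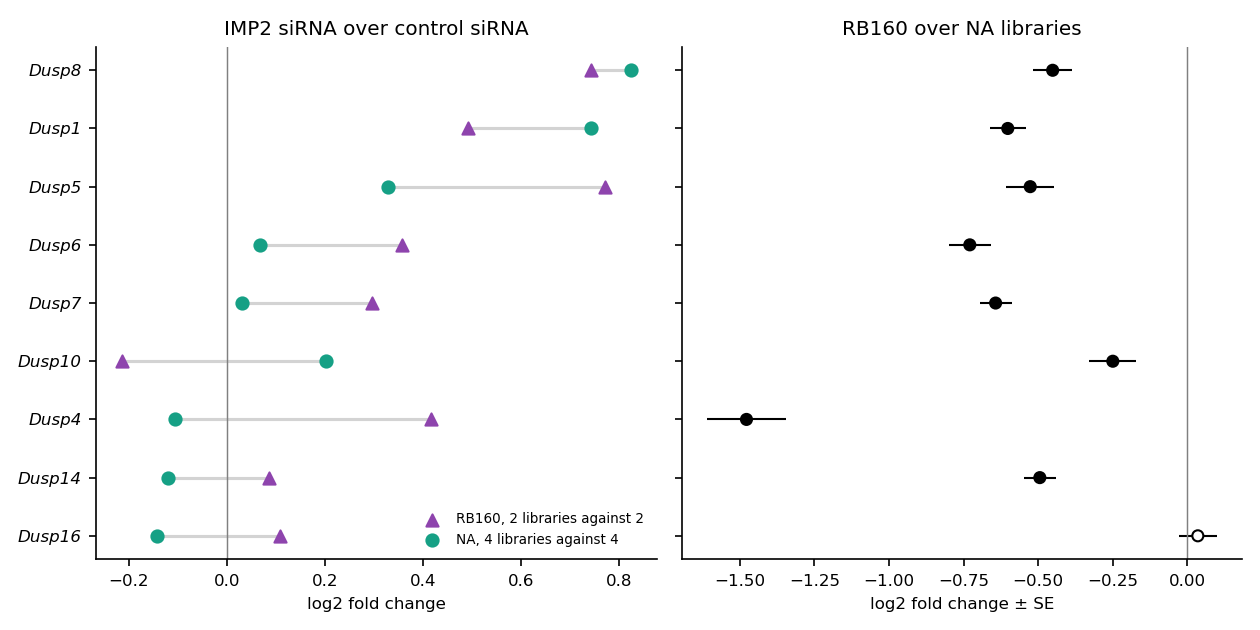
Left, log2 fold change of the IMP2 siRNA over the control siRNA, averaged over both stimulus conditions, within the RB160 libraries (triangles) and within the NA libraries (circles). Right, log2 fold change of RB160 over NA libraries with its standard error, filled where called. Dusp8, Dusp1, Dusp5, Dusp6 and Dusp7 lie above 0 in both sets. Dusp10, Dusp4, Dusp14 and Dusp16 lie on opposite sides of 0, with Dusp10 alone above 0 in NA. On the right, Dusp16 is the member that is not lower in RB160.

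The levels themselves differed between the sets for 8 of 9 members, all lower in RB160, where 69.5% of all genes were called and 34.6% were called lower. The median log2 fold change of RB160 over NA was -0.53 for the members and 0.002 for all genes. Dusp4 differed most, with 5.30 to 9.68 CPM in the 4 RB160 libraries and 15.6 to 21.9 CPM in the 8 NA libraries, or -1.48 ± 0.13 on the log2 scale (edgeR adjusted p = 4.6e-07). Dusp6, Dusp7 and Dusp14 also had no overlap between the sets, at -0.73 ± 0.07, -0.64 ± 0.05 and -0.49 ± 0.05. The share of all genes without overlap is not given here, so its lack is no result about the members. Dusp1 (-0.60 ± 0.06), Dusp5 (-0.53 ± 0.08), Dusp8 (-0.45 ± 0.07) and Dusp10 (-0.25 ± 0.08) were called with overlapping ranges. The Dusp10 call was lost without siIMP2 replicate 3 (-0.17, adjusted p = 0.0911) and without siIMP2_IL17 replicate 3 (-0.19, adjusted p = 0.0641). Dusp16 had 21.7 to 27.7 CPM in RB160 and 21.5 to 27.4 CPM in NA and was not called (0.03 ± 0.06, adjusted p = 0.637). Several marker lists moved with the sets. Of 14 fibroblast markers 9 were higher and 3 lower in RB160, though the summed levels overlapped (27930 to 36340 CPM in RB160 and 29900 to 38460 CPM in NA). The 7 neural markers, none at 0 in all libraries, summed to 319.6 to 435.0 CPM in RB160 and 893.1 to 954.5 CPM in NA, and 2 of 4 tested genes were higher and 2 lower in RB160. At much lower levels, the epithelial list summed to 2.26 to 3.36 CPM in RB160 and 0.525 to 1.75 CPM in NA, with 3 of 3 tested genes higher in RB160. The endothelial list summed to 0.615 to 0.806 CPM in RB160 and 0.973 to 1.53 CPM in NA, and the skeletal muscle list to 0.707 to 0.780 CPM in RB160 and 1.38 to 2.37 CPM in NA. Of the ERK output list 10 of 13 tested genes were lower and 1 was higher in RB160. The part of these lists in the member differences was not tested.

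IL-17 was asked next. No member was called for IL-17 with either siRNA: 0 of 9 with the IMP2 siRNA, beside 0.511% of all genes, and 0 of 9 with the control siRNA, beside 0.423%. At an unadjusted p below 0.05, edgeR gave 1 member with the IMP2 siRNA and 2 with the control siRNA, beside 1038 and 1503 of 13702 genes. DESeq2 called 0 and 1 (Dusp14), beside 170 and 197 genes, and limma-voom called 0 in either, beside 64 and 66 genes. The IL-17 comparisons share their unstimulated libraries with the siRNA comparison above. IL-17 was active in these cells, since 8 of 9 genes of a list of established IL-17 targets were called higher in the average over both siRNAs. Dusp1, a feedback gene of inflammatory signalling, had 111.8, 171.3 and 187.4 CPM in siIMP2_IL17, against 110.3, 179.8 and 199.5 CPM in siIMP2, with the RB160 library first. In the control arm Dusp1 had 81.2, 111.5 and 103.8 CPM in siControl_IL17, against 76.8, 115.2 and 108.7 CPM in siControl. These values overlap, and the log2 differences were -0.05 ± 0.08 with the IMP2 siRNA and -0.01 ± 0.08 with the control siRNA. The largest differences were those of Dusp4 with the IMP2 siRNA (0.31 ± 0.16, edgeR adjusted p = 0.767) and of Dusp14 with the control siRNA (-0.28 ± 0.07, edgeR adjusted p = 0.129).

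Averaged over both siRNAs, Dusp14 was the 1 member called for IL-17, beside 2.72% of all genes, with 1.42% called lower. Dusp14 had 25.1 CPM in the RB160 library and 33.5 and 36.2 CPM in the NA libraries of siIMP2_IL17, against 30.9 CPM and 39.3 and 37.8 CPM in siIMP2. With the control siRNA it had 23.2 CPM in the RB160 library and 37.6 and 35.1 CPM in the NA libraries of siControl_IL17, against 29.7 CPM and 42.7 and 43.8 CPM in siControl. Each IL-17 library was below the unstimulated libraries of its own set and siRNA, while the pooled groups overlapped. The averaged log2 fold change was -0.24 ± 0.05, a 0.846-fold level, with an edgeR adjusted p of 0.022, at -0.33 within RB160 and -0.20 within NA. The call was lost in the NA libraries alone (adjusted p = 0.102) and without siIMP2 replicate 3 (-0.20), siIMP2_IL17 replicate 1 (-0.22) or siControl_IL17 replicate 3 (-0.21), at adjusted p-values of 0.0619 to 0.0639. The other 8 members ran from -0.09 (Dusp7) to 0.18 (Dusp4), and Dusp16, at 0.17 ± 0.06, had the smallest adjusted p among them (0.167). A difference of the IL-17 response between siIMP2 and siControl cells was called for 0 of 9 members, beside 0 of 13702 genes, by edgeR (0 members and 152 genes at an unadjusted p below 0.05), and DESeq2 and limma-voom called 0 members. That difference was -0.04 ± 0.11 for Dusp1 and -0.26 ± 0.12 for Dusp8 (siIMP2 minus siControl), and its standard error was at most 0.23 among the members. Between the title sets the IL-17 effect was called different for 0 of 9 members by edgeR, DESeq2 and limma-voom, beside 0.307% of all genes by edgeR. At an unadjusted p below 0.05 edgeR gave 1 member for that difference, beside 1310 of 13702 genes.

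Reads that fall inside a gene but outside its exons, as in introns, gave another readout of the same genes. The files give total gene reads and exon reads, and the difference was tested with its own filter and scaling over 12463 genes. Dusp5 and Dusp8 were higher with the IMP2 siRNA in these reads as well, at log2 0.34 ± 0.08 (edgeR adjusted p = 0.0019) and 0.62 ± 0.18 (edgeR adjusted p = 0.0125), averaged over both conditions. They were 2 of 9 members called, beside 22.2% of all genes and 11.2% called higher. Dusp1 was not called, at 0.19 ± 0.13 (edgeR adjusted p = 0.353), where its exon reads gave 0.66. The Dusp1 gene is 2.93 kilobases long with 2.697 kilobases of exon, so little of it lies outside exons and this readout is weak for it. Outside exons Dusp1 had 54 to 89 reads per siIMP2 or siIMP2_IL17 library and 45 to 141 per siControl or siControl_IL17 library, and Dusp5 had 275 to 611 against 225 to 458. Dusp8 had 27 to 49 reads per library with the IMP2 siRNA and 16 to 30 with the control siRNA, so its value rests on few reads. Dusp6, called in exons, was at -0.08 ± 0.09 outside them (edgeR adjusted p = 0.579). A direct test of the ratio of outside to exon reads was added after these values were seen. Over all genes the share outside exons was 6.42% in siControl_IL17 replicate 3, 6.28% in siIMP2_IL17 replicate 3 and 4.49% to 5.34% in the other libraries. For Dusp1 the outside share averaged 1.37% of gene reads with the IMP2 siRNA (0.871% to 1.73%) and 1.82% with the control siRNA (1.22% to 3.30%). This was a log2 ratio difference of -0.37. The exact two-sided permutation test within title sets gave p = 0.0381, or 0.343 after Benjamini-Hochberg adjustment over the 9 members, and no member passed. The smallest p this test can give is 0.00476, and the smallest found was the 0.0381 of Dusp1. A difference between the read classes was not shown for any member.

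**Figure D4:**
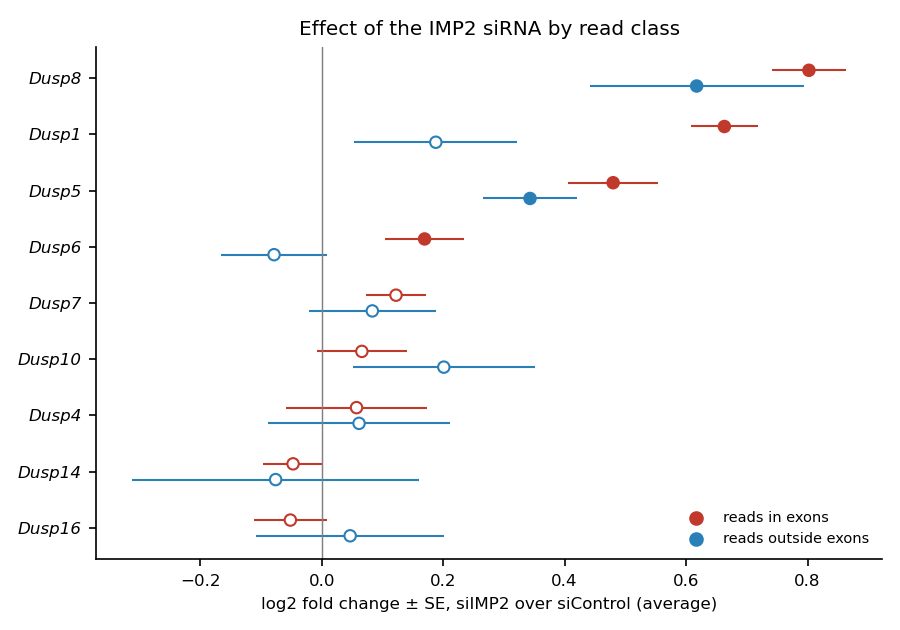
Log2 fold changes with standard errors of the IMP2 siRNA over the control siRNA, averaged over both stimulus conditions, in reads inside exons (red) and outside exons (blue), filled where called. Dusp8 and Dusp5 are called in both read classes, and Dusp1 and Dusp6 in exon reads alone.

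The 3′ UTRs of the members were searched for ATTTA, the core of AU-rich elements that mark unstable mRNAs, and for GGAC, part of the consensus of N6-methyladenosine. Dusp1 held 4 ATTTA in 690 bases, 5.80 per kilobase, and 4.44% of 11665 tested genes with a 3′ UTR of at least 100 bases had at least as many per kilobase. The median gene had 1.33 per kilobase. Dusp10 (2.70 per kilobase), Dusp8 (2.11) and Dusp4 (1.80) were also above the median, and Dusp7 and Dusp14 held none. For GGAC, Dusp5 was highest among the members with 6.31 per kilobase, where 11.5% of genes had at least as many, and Dusp1 with 2.90 was close to the median of 2.83. The 3 members with the largest siRNA effects thus spanned 0.902 to 5.80 ATTTA and 2.90 to 6.31 GGAC per kilobase.

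The promoter letters were also set against the siRNA effect over all genes, a description added after the member values were known. Of 10167 tested genes with a promoter window, 24.6% were called higher and 25.6% lower in the averaged siRNA comparison. Of 368 with a full CRE, the element in Dusp8 and Dusp1, 24.7% were higher and 23.9% lower, with a median log2 fold change of 0.0018, shares close to those of all genes. Of the 12 with 2 or more full CREs, as in Dusp8, 16.7% were higher and 41.7% lower, with a median of -0.10. Of 163 with a CArG box, as in Dusp5, 49.7% were higher and 15.3% lower, with a median of 0.16. The genes with 2 CArG boxes numbered 2, Dusp5 among them, and both were higher. Srf, which encodes the factor that binds the CArG box, had 142.3 CPM with the IMP2 siRNA and 91.6 CPM with the control siRNA (means of 6 libraries each), or 0.63 ± 0.06 on the log2 scale (edgeR adjusted p = 1.3e-06), at 0.60 within RB160 and 0.64 within NA. The genes counted with a CRE include Dusp8 and Dusp1, and those with a CArG box include Dusp5. The part of these motifs or of Srf in the member changes was not tested.

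Genes with the pattern most like Dusp8 and Dusp14 were sought by Pearson r of log2 CPM over the 12 libraries after each set's mean was removed, among 10627 genes. The points share libraries and depth, and r is a description. For Dusp8 the 5 nearest genes were Msx2 (r = 0.994), Dbndd2 (0.988), Arhgef2 (0.987), Nppb (0.987) and Timmdc1 (0.986). Dusp1 was the nearest member, at 0.967 and place 86, followed by Dusp5 at 0.836, and Dusp14 and Dusp16 had -0.21 and -0.19. For Dusp14, chosen for its IL-17 effect, the nearest were Runx3 (0.964), Podnl1 (0.932), Chst1 (0.928), Ppfibp1 (0.926) and Pcdh18 (0.925), and its nearest member was Dusp7 at 0.557.

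The rest of the MAP kinase pathway was read from lists of genes, in the averaged siRNA comparison, where 49.5% of all genes were called. Of 16 tested phosphatases in the wider dual-specificity family 4 were higher and 4 lower. Dusp3, a small phosphatase of ERK and JNK, had 58.8 CPM with the IMP2 siRNA and 35.0 CPM with the control siRNA (log2 0.77 ± 0.05), close to the size of the Dusp8 and Dusp1 changes, and was higher in both sets. Ssh1, a cofilin phosphatase, was at 0.26 ± 0.05, while Dusp23 (-0.59 ± 0.10) and Dusp9 (-0.75 ± 0.14), an ERK phosphatase, were lower at mean levels under 5 CPM. Dusp9 was at -0.15 within RB160, where it averaged 1.31 CPM, and at -0.97 within NA. Dusp23 was at -0.50 within RB160 and -0.65 within NA. The family therefore held changes in both directions.

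Of 10 tested MAP kinases, the class that includes the kinases on which the phosphatases act, 2 were higher and 3 lower. Mapk6, an atypical MAP kinase, was at 0.54 ± 0.05 and Mapk14, the main p38 kinase, at 0.25 ± 0.05. Mapk8 and Mapk9, which encode JNK kinases, were at -0.18 ± 0.06 and -0.10 ± 0.04, and their groups overlapped within a set. Upstream, 6 of 16 MAP kinase kinases and RAS or RAF genes were higher and 3 lower. Map2k1, which activates ERK, was at 0.54 ± 0.04, Rras at 0.50 ± 0.06 and Nras at 0.28 ± 0.04, while Map2k6, which activates p38, was at -1.21 ± 0.08. Of 15 MAP3 kinases 5 were higher and 4 lower, with Map3k10 at 0.57 ± 0.04, Zak at 0.49 ± 0.04, Map3k14 at -0.51 ± 0.05 and Map3k5, which activates JNK and p38, at -1.17 ± 0.13. Of 18 receptor tyrosine kinases 4 were higher and 7 lower, led by the PDGF receptor gene Pdgfra, which had 11.9 CPM with the IMP2 siRNA and 55.7 CPM with the control siRNA (-2.27 ± 0.08). Pdgfrb (-0.50 ± 0.04) and Ntrk3 (-0.69 ± 0.07) were lower and Igf1r (0.35 ± 0.05) was higher.

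Downstream, 8 of 13 genes of the ERK output list were higher and 2 lower, with a list median of 0.25. Epha4 (1.15 ± 0.06), Plaur (0.93 ± 0.08) and Phlda1 (0.67 ± 0.07) were higher and Egr1 (-0.77 ± 0.09) was lower. Of the immediate early factors, the class to which Dusp1 belongs, 10 of 21 were higher and 7 lower, with Srf and Klf6 (0.42 ± 0.04) higher and Fos (-1.26 ± 0.12) and Egr1 lower. Dusp1 thus moved with Srf and against Fos and Egr1 in this comparison. Of 10 MAPK-activated kinases 3 were higher and 3 lower, with Rps6ka2 at 0.66 ± 0.06, Mknk1 at 0.44 ± 0.06, Rps6ka4 at -0.27 ± 0.05 and Rps6ka3 at -0.28 ± 0.06. Of 12 tested Sprouty, Spred and related genes, the other feedback inhibitors of ERK, 1 was higher and 4 were lower. Spry4 was at 0.74 ± 0.08, Il17rd at -0.71 ± 0.09, Errfi1 at -0.41 ± 0.10 and Spred1 at -0.14 ± 0.05. Of 10 mRNA decay regulators 1 was higher and 4 were lower, with Zfp36l1 (-0.59 ± 0.05), Zfp36l2 (-0.35 ± 0.05) and Hnrnpd (-0.25 ± 0.05) lower and Rc3h2 (0.16 ± 0.05) higher. Zfp36l1 and Zfp36l2 encode proteins that bind AU-rich elements and speed decay.

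**Figure D5:**
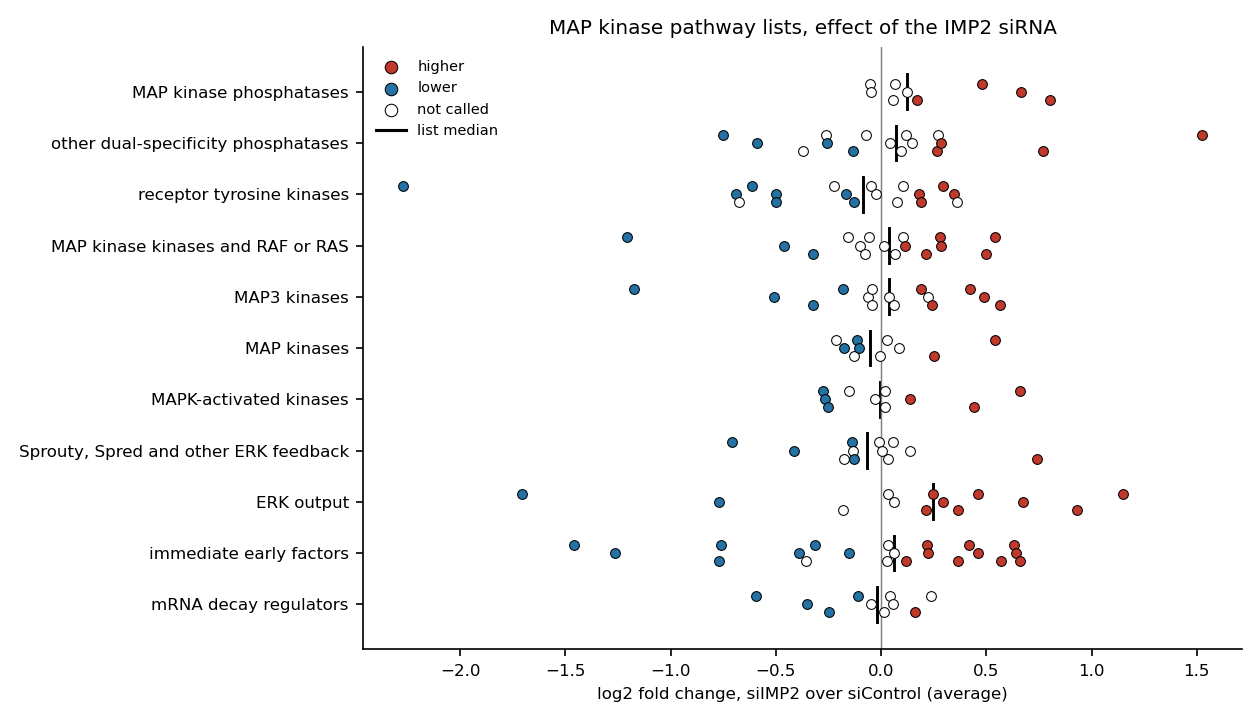
Log2 fold change of the IMP2 siRNA over the control siRNA, averaged over both stimulus conditions, for each tested gene of 11 lists (points, red called higher, blue called lower, white not called) with the list median as a line. The 9 phosphatase members run from -0.05 to 0.80, with 4 called higher and none lower. Every other list holds called genes on both sides of 0. Dusp9, an ERK phosphatase called lower (-0.75, with -0.15 within RB160 and -0.97 within NA), stands in the list of other dual-specificity phosphatases.

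For the averaged IL-17 effect, where 2.72% of all genes were called, 12 of 138 distinct genes of the pathway lists passed (8.7%), 7 higher and 5 lower. Map3k8, a kinase of the ERK branch, was at 0.99 ± 0.16, Lrig1 at 0.60 ± 0.06, Ier3 at 0.68 ± 0.07, Map2k6 at 0.53 ± 0.08 and Zc3h12a, which encodes an RNase of inflammatory mRNAs, at 1.99 ± 0.14. Ier5 (0.17 ± 0.04) and Zfp36l1 (0.26 ± 0.05) were also higher, and Map3k14 (-0.26 ± 0.05), Pdgfrb (-0.24 ± 0.04), Fgfr2 (-0.27 ± 0.07), Ntrk3 (-0.30 ± 0.07) and Mras (-0.23 ± 0.05) were lower. None of the MAP kinases, MAPK-activated kinases or other dual-specificity phosphatases was called for IL-17 by edgeR.

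The authors' deposited table gives log2 fold changes for the IMP2 siRNA against a control arm that it calls Mock, with p-values adjusted for the false discovery rate. In the authors' deposited table Dusp8 stood at 0.94 (p = 0.293), Dusp1 at 0.71 (p = 0.254) and Dusp5 at 0.46 (p = 1.00) for the IMP2 siRNA over Mock. The directions are those of the edgeR fit, and the authors' p-values do not pass 0.05. In the edgeR fit without the set term, Dusp8 was at 0.0496, Dusp1 at 0.221 and Dusp5 at 0.427 in adjusted p, and 1 of 9 members was called, beside 321 of 13702 genes.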

How the data were processed

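The study sequenced RNA of 12 libraries. The deposited table holds raw counts, whole numbers of reads per gene in exons, and the authors' per-library files add total gene reads and unique reads. The deposited table of comparisons holds log2 fold changes and p-values corrected by the authors for false discovery (per the file headers), from a model not named there. Reads were trimmed pairs (per the file headers) on mm10 (per the submitters' processing notes). Aligner, counter and strand use: not given in the sources used here, so genes that overlap or share reads have uncertain counts. Another 36 columns of per-sample normalised values were not used.

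The edgeR 4.0.16 quasi-likelihood test was run in R 4.3.3 on the counts of all 12 libraries, with TMM factors, filterByExpr (minimum count 10, minimum total 15), and terms for group and title set. All 13702 genes that passed were tested, with Benjamini-Hochberg adjustment over them and a threshold of 0.05. A CPM stood for 31.9 to 50.9 reads. RB160 values, from 1 library per group, are differences of log2 CPM with a prior count of 2. NA values come from a fit of those 8 libraries. Differences between sets came from a fit with set by siRNA and set by IL-17 terms. The method was tested on simulated counts. Alternatives covered scaling (RLE, upper quartile), the test (DESeq2 1.42.0, voom of limma 3.58.1, a robust fit), 2 filters, no set term, NA alone, the compared groups alone, unique reads and each library left out.

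Promoters are from the RefSeq table (GRCm38.p6) and 3′ UTRs from the GENCODE mouse annotation. Tables and figures used Python 3.11.15, pandas 2.3.3 and matplotlib 3.10.9. The members, gene lists and the rule for named genes were chosen with earlier results of these data known. The rule takes all members, up to 4 genes per list of smallest p for the averaged siRNA effect, up to 2 called ones for IL-17, and the 5 genes most like the leading members (established symbols only, averaging 1 or more in log2 CPM). The motifs and the read-ratio test were chosen after values were seen. Protein sequences were not used here.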

Additional observations from a re-analysis of the deposited data

Results flagged for a closer look

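The effect of the IMP2 siRNA was called different between the title sets for 2 of 9 members, by the edgeR term for that difference, beside 6.58% of all genes. At an unadjusted p below 0.05 that term gave 8 members, beside 2942 of 13702 genes. For Dusp5 the difference of RB160 minus NA was 0.44 ± 0.10 on the log2 scale (adjusted p = 0.0229), with the siRNA effect at 0.77 within RB160 and 0.33 within NA. For Dusp10 it was -0.42 ± 0.10 (adjusted p = 0.0288), with -0.21 within RB160 and 0.20 within NA. Dusp10 was lower with the IMP2 siRNA in both RB160 pairs, at 23.8 against 29.4 CPM without a stimulus and 27.3 against 29.7 CPM with IL-17. In NA it was higher, at 34.1 and 33.1 against 31.2 and 29.1 CPM without a stimulus and 35.3 and 38.5 against 33.3 and 28.3 CPM with IL-17. The labels do not say what the sets are, and RB160 has 1 library per group.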

How the results depend on the processing

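Calls were lost without the title-set term. Without it the members called were 1 (Dusp8) for siIMP2 against siControl, 0 with IL-17, 2 (Dusp1 and Dusp8) in the averaged siRNA comparison and 0 for the averaged IL-17 effect. Beside them 321, 327, 1666 and 4 of 13702 genes were called, in place of 4505, 4581, 6777 and 373 with the term. The log2 fold changes themselves moved little without the term: for siIMP2 against siControl Dusp1 was at 0.70 and Dusp5 at 0.45 (0.68 and 0.47 with it), and with IL-17 Dusp1 was at 0.67, Dusp5 at 0.44 and Dusp8 at 0.68 (0.64, 0.49 and 0.67 with it), while their standard errors were 0.21 to 0.26 without it. The NA libraries alone gave 0 members for the averaged IL-17 effect, beside 199 of 13476 genes. DESeq2 called 1 (Dusp14) for siControl_IL17 against siControl, beside 197 of 13702 genes. With no filter beyond 1 count, 5 members were called for the difference of the siRNA effect between sets, beside 1522 of 20274 genes. With each library left out in turn, members called were 0 to 1 for the averaged IL-17 effect and 0 to 3 for the difference between sets. Changes of sign were limited to uncalled members. The averaged siRNA effect of Dusp4 was -0.018 without the set term, -0.11 in NA alone and -0.050 to 0.16 with a library left out. Averaged IL-17 effects with a library left out ran from -0.074 to 0.011 for Dusp1, -0.13 to 0.020 for Dusp5 and -0.0027 to 0.066 for Dusp8, and Dusp6 was at -0.0011 in NA alone. The RB160 difference of Dusp16 ran from -0.031 to 0.089. Over all genes, calls with a library left out were 9 to 98 (58 with all libraries) for siControl_IL17 against siControl, 13 to 117 (70) for siIMP2_IL17 against siIMP2, 198 to 490 (373) for the averaged IL-17 effect, 112 to 1110 (902) for the siRNA difference between sets and 2 to 64 (42) for the IL-17 difference between sets. The title set, which ties the RB160 libraries of the 4 groups, was a term in the fits. No paired analysis was run because, within NA, no label ties a library of 1 group to a library of another, and replicates there were numbered by accession. The NA titles run through the 4 groups in the same order for replicate 1 and for replicate 2. No label calls these blocks, and a fit with such blocks was not run. Depth limits Dusp8 and Dusp4, with the fewest counts, and the reads outside exons.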
